A study of Caenorhabditis elegans with 9 samples.

Results

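The nuclear RNAi genes *hrde-1*, *hrde-2*, *nrde-1*, *nrde-2*, *nrde-3* and *nrde-4* were examined at the mRNA level in *Caenorhabditis elegans*. The 6 genes were chosen by symbol, without use of their counts but with earlier results of these data known. They were matched to 6 of the 31106 genes in the count files. Polyadenylated RNA had been sequenced from whole adults to ask how the loss of the Argonaute HRDE-1 and of HRDE-2 alters gene expression. The 3 genotypes were wild-type (N2), *hrde-1(tm1200) III* (strain USC661) and *hrde-2(qe20) V* (strain FD53, a gene also named *enri-3*), with 3 libraries each. All animals were synchronized, grown at 20 °C for about 68 hours after L1 arrest and collected in pools of 50000 as biological triplicates. The labels carry no other allele and no agent, and how much of its gene each allele removes is not given in the sources used here. Since each library is a pool of whole animals, fewer germ cells and less RNA per germ cell cannot be told apart.

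Nuclear RNAi silences genes in the nucleus under the guidance of small RNAs. An Argonaute protein carries 22G-RNAs, which are made against mRNA templates by RNA-dependent RNA polymerases, from the cytoplasm into the nucleus, where it meets nascent transcripts. The NRDE factors then act at the target gene to inhibit RNA polymerase II elongation and to direct methylation of histone H3 at lysine 9. In the germline this pathway maintains silencing across generations and keeps germ cells from losing their fertility.

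The 6 genes fall into 3 roles. Both Argonautes were included: HRDE-1, which acts in the germline, and NRDE-3, which acts mainly in somatic cells. HRDE-2 sits in germ granules and influences the set of small RNAs loaded onto HRDE-1. NRDE-1, NRDE-2 and NRDE-4 are nuclear effectors needed downstream of the Argonautes. On the WS258 release of the genome (WBcel235), all 6 were annotated as protein coding. *hrde-1* (WBGene00007624) lies on the minus strand of III from 4172337 to 4176159, with 7 exon blocks that hold 3537 bases. *nrde-3* (WBGene00019862) lies on the plus strand of X from 372235 to 376900, with 11 exon blocks and 3442 bases. *hrde-2* (WBGene00011324), the shortest, lies on the plus strand of V from 15005100 to 15006400, with 4 exon blocks and 1154 bases. *nrde-1* (WBGene00007577) is on the plus strand of III from 3713463 to 3718745, with 14 exon blocks and 2567 bases. *nrde-2* (WBGene00011333) is on the minus strand of II from 10242595 to 10247638, with 13 exon blocks and 4055 bases. *nrde-4* (WBGene00001584) is on the minus strand of IV from 7646200 to 7654230, with 14 exon blocks and 2519 bases.

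Library totals ranged from 5801326 to 11884233 counts, of which ribosomal RNA genes took 19.4% to 31.4%. All 6 genes passed the filter on low counts, with between 118 and 5274 counts in a library. Levels are given as CPM, counts per 1000000 counts of the scaled library total. Where genes are compared with each other, they are given as TPM, which also divides by exon length. The full exon length was used in every genotype, also for *hrde-1* and *hrde-2* in their own mutants. Wild-type replicate 1 stood apart from the other wild-type libraries: it was the lowest wild-type library for 6 of the 6 genes, and wild-type replicate 2 the highest for 6 of 6. Most germline marker genes moved in the same direction there: 13 of 15, from *pgl-1* to *puf-5*, were lowest in wild-type replicate 1 among the wild-type libraries. The exceptions were *fbf-1* and *fbf-2*, which were highest there, at 23.5 and 33.9 CPM against at most 15.8 and 17.9 CPM. The summed level of the 15 genes was 1736 CPM in wild-type replicate 1 and 3301 and 2856 CPM in replicates 2 and 3. It ranged from 3001 to 3796 CPM in *hrde-1* mutants and from 3139 to 4094 CPM in *hrde-2* mutants, and none of the 15 was at 0. The summed level of 10 sperm genes went the other way, at 47.7 CPM in wild-type replicate 1 against 18.1 and 18.3 CPM in replicates 2 and 3. Values without wild-type replicate 1 or relative to the 15 germline markers are therefore given for several of the results.

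**Figure D1:**
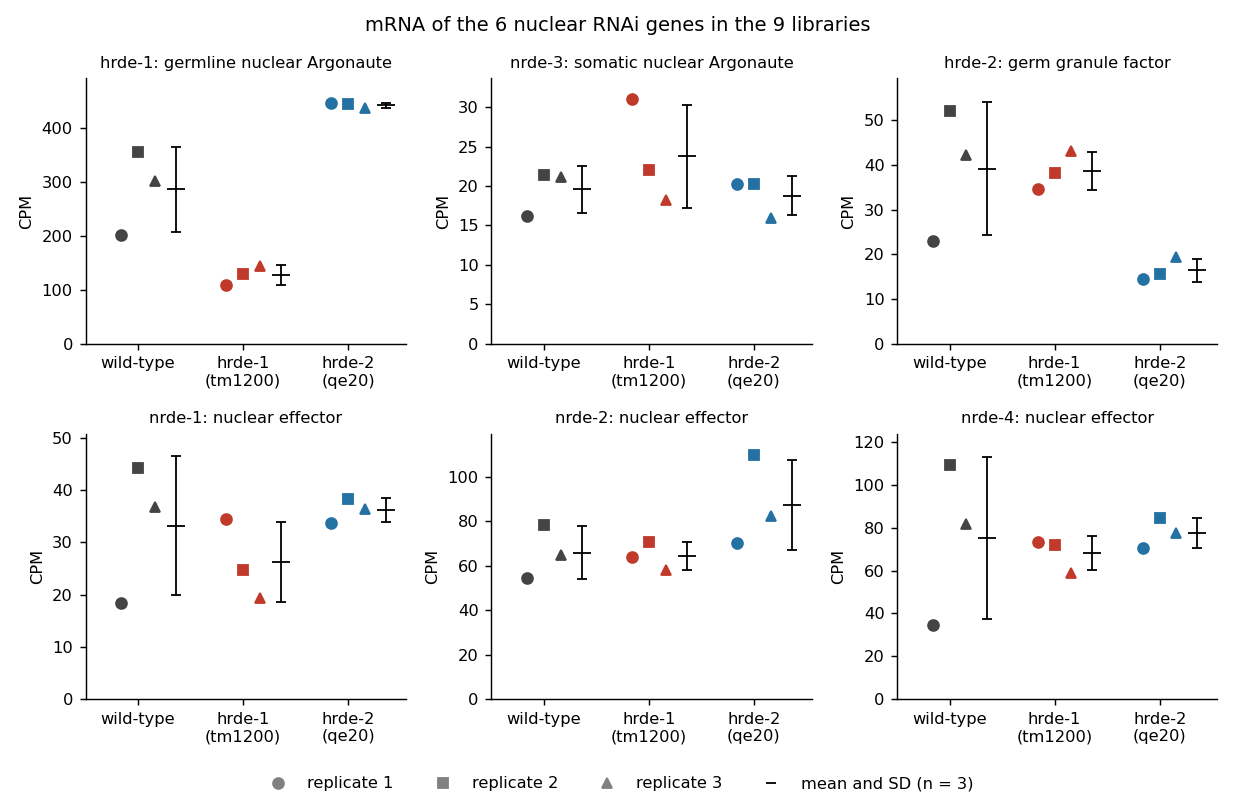
mRNA level of the 6 nuclear RNAi genes in each library (CPM, linear axis from 0) by genotype, with symbols for the replicate number and the mean with SD of 3 libraries beside them. The *hrde-1* mRNA takes 3 separate levels in the 3 genotypes, *hrde-2* mRNA is lowest in *hrde-2* mutants, and wild-type replicate 1 is the lowest wild-type point in every panel.

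The *hrde-1* mRNA, which encodes the germline Argonaute, was the most abundant of the 6 and differed most between the genotypes. In *hrde-1* mutants it was measured at 108, 129 and 144 CPM in replicates 1, 2 and 3, against 201, 355 and 301 CPM in wild-type. The groups did not overlap, although all 3 mutant libraries still held reads of the gene. The fall was 2.25-fold, a log2 change of -1.17 ± 0.22 (SE, n = 3 and 3), with a 95% interval from -1.65 to -0.69 and an adjusted p of 0.0169 by the quasi-likelihood test of edgeR. In this comparison 1 of the 6 genes was called. Of the 12141 genes tested, 1.55% were called at this threshold in either direction and 0.313% were called lower. Leaving out 1 library raised the adjusted p to 0.0810 or 0.0672 for replicate 2 or 3 of wild-type, to 0.0783 or 0.0965 for replicate 1 or 2 of the *hrde-1* mutants, and a fit of only the 6 libraries compared gave 0.101. The log2 change then lay between -1.15 and -0.96, and over all 20 alternatives it ran from -1.43 to -0.96.

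In *hrde-2* mutants the level of *hrde-1* mRNA was 445, 444 and 436 CPM, above all 3 wild-type libraries. The mean was 442 ± 4.71 CPM (SD, n = 3), against 286 ± 78.5 CPM in wild-type. The log2 change of 0.63 ± 0.22 (SE) had a 95% interval from 0.16 to 1.10 and did not pass the test across all genes (edgeR adjusted p = 0.0791). Without wild-type replicate 1 or 2 it did, at 0.0451 and 0.0423, with log2 changes of 0.51 and 0.83, and the DESeq2 Wald test gave an adjusted p of 0.0401. Between the mutants the difference was 3.48-fold, a log2 value of 1.80 ± 0.22 (SE) with an interval from 1.31 to 2.28 (edgeR adjusted p = 0.00110), and it passed under each of 20 alternatives. Groups without overlap are common here: 22.8% of all genes tested did not overlap between *hrde-1* mutants and wild-type, 32.2% between *hrde-2* mutants and wild-type and 32.5% between the mutants. The exact two-sided permutation test of 3 against 3 libraries cannot go below p = 0.1, the value it gave for *hrde-1* in each of the 3 comparisons.

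Relative to the germline markers, the wild-type libraries came closer to each other. The *hrde-1* level divided by the geometric mean of the 15 markers was 2.32, 2.60 and 2.48 in wild-type, a coefficient of variation of 5.70%, compared with 27.5% for the CPM. In *hrde-1* mutants this ratio was 0.847, 0.947 and 0.962, and in *hrde-2* mutants it was 3.05, 3.06 and 2.64. Thus the ratio was lower in every *hrde-1* library, while *hrde-2* replicate 3 lay just above the highest wild-type value. With the markers as the scale of the whole fit, the log2 change in *hrde-1* mutants was -1.43 (edgeR adjusted p = 0.00472), and that in *hrde-2* mutants was 0.24 (0.281). The rise in CPM in *hrde-2* mutants thus became smaller on this scale, and the part of germline content in it was not tested.

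The *hrde-2* mRNA fell in the mutant of its own gene. It was measured at 14.4, 15.6 and 19.4 CPM in *hrde-2* mutants and at 23.0, 52.2 and 42.3 CPM in wild-type, with no overlap. The fall was 2.38-fold, a log2 change of -1.25 ± 0.27 (SE) with an interval from -1.85 to -0.66 (edgeR adjusted p = 0.0104). Of the 6 genes, 1 was called in this comparison. Of all genes tested, 11.8% were called in either direction and 4.25% were called lower. The wild-type library nearest to the mutants was replicate 1, at 23.0 CPM beside a highest mutant value of 19.4 CPM. The call was lost without *hrde-2* replicate 1 (adjusted p = 0.0645) or replicate 2 (0.0612). Over all 20 alternatives the log2 change ran from -1.63 to -0.97.

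In *hrde-1* mutants, *hrde-2* mRNA was at 34.6, 38.3 and 43.1 CPM, within the range of wild-type. The log2 change was -0.02 ± 0.27 (SE), and its interval from -0.60 to 0.56 does not exclude a change of about 1.5-fold in either direction. With single libraries left out, this log2 change ran from -0.26 to 0.27. The mutants differed from each other by -1.23 ± 0.27 (SE, edgeR adjusted p = 0.0239), and this call was lost when any 1 of the 6 mutant libraries was left out (adjusted p between 0.0562 and 0.131). In that comparison 2 of the 6 genes were called, *hrde-1* and *hrde-2*, beside 5.67% of all genes tested. Divided by the germline markers, *hrde-2* mRNA was at 0.266, 0.383 and 0.348 in wild-type, at 0.271, 0.280 and 0.288 in *hrde-1* mutants and at 0.0982, 0.107 and 0.117 in *hrde-2* mutants. On this scale the *hrde-2* mutants lay well below all 6 other libraries.

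The neighbouring gene *mut-15*, which encodes a factor of the Mutator complex that amplifies 22G-RNAs, ends 44 bases upstream of *hrde-2* on the same strand. It was at 34.3, 33.2 and 30.7 CPM in *hrde-2* mutants and at 23.9, 33.0 and 29.96 CPM in wild-type. Where *hrde-2* mRNA fell, *mut-15* did not pass the test, with a log2 change of 0.18 ± 0.20 (SE) with an interval from -0.25 to 0.60 (edgeR adjusted p = 0.602). Per length, the ratio of *hrde-2* to *mut-15* was 1.70, 2.81 and 2.51 in wild-type, 2.45, 3.24 and 2.91 in *hrde-1* mutants and 0.742, 0.830 and 1.12 in *hrde-2* mutants. The ratio in *hrde-2* mutants lay below all other libraries, with an exact two-sided permutation p = 0.1 against either genotype, the smallest that 3 against 3 libraries allow.

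**Figure D2:**
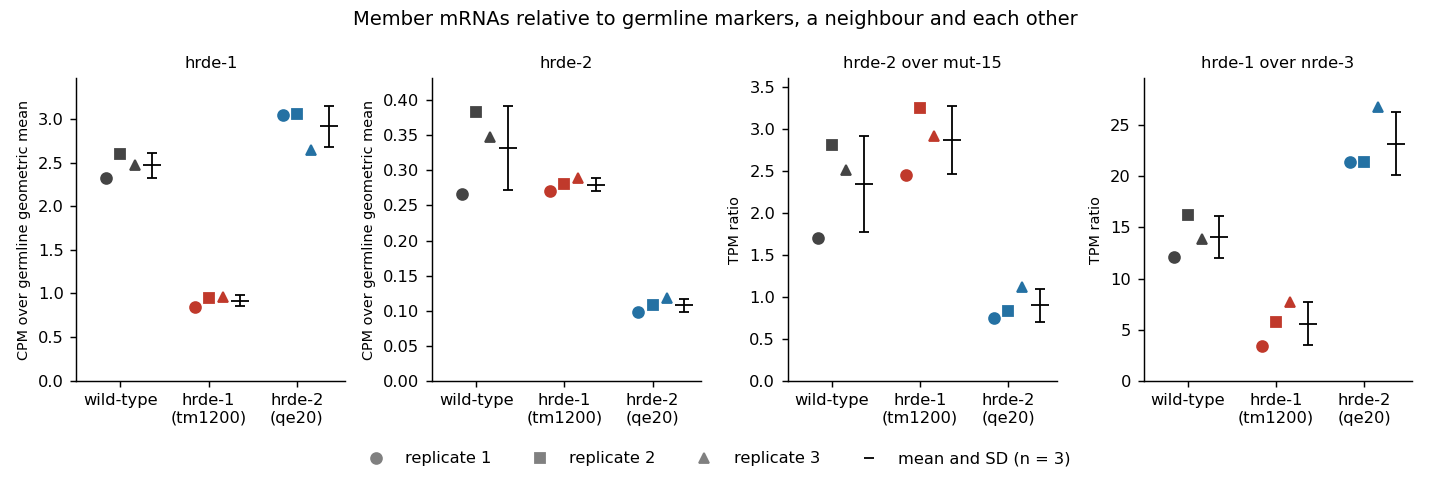
Ratios that do not depend on the library total, by genotype, each with its 3 libraries and their mean and SD (linear axes from 0). The first 2 panels give *hrde-1* and *hrde-2* CPM over the geometric mean of 15 germline markers, and the others give TPM ratios. *hrde-2* over *mut-15* lies between 0.742 and 1.12 in *hrde-2* mutants and at 1.70 or more elsewhere. The ranges of *hrde-1* over *nrde-3* do not overlap between the 3 genotypes.

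The *nrde-3* mRNA, of the somatic Argonaute, was the least abundant per length in every genotype and did not pass the test in any comparison. It was at 16.2, 21.4 and 21.2 CPM in wild-type, at 31.0, 22.02 and 18.3 CPM in *hrde-1* mutants and at 20.3, 20.2 and 15.9 CPM in *hrde-2* mutants, so that all groups overlapped. The log2 change was 0.28 ± 0.24 (SE) in *hrde-1* mutants, with an interval from -0.24 to 0.81, and -0.06 ± 0.24 in *hrde-2* mutants, with an interval from -0.59 to 0.46. The highest value came from *hrde-1* replicate 1, and markers of muscle and the yolk protein genes were highest in the same library. The summed level of the 3 muscle genes *unc-54*, *myo-3* and *unc-15* was 3511 CPM there and between 449 and 1856 CPM in the other libraries. That of the 4 intestinal genes *vit-2*, *vit-5*, *elt-2* and *ges-1* was 51235 CPM there and between 13482 and 33688 CPM elsewhere. The intestinal sum was carried by the yolk protein genes *vit-2* and *vit-5*, while the intestinal transcription factor gene *elt-2* was at 22.02 CPM there and highest in wild-type replicate 1, at 34.4 CPM. Nor was that library the highest for the hypodermal *col-19* (1044 CPM, against 1531 CPM in *hrde-1* replicate 3) or for the neuronal *rab-3* and *unc-119*, though it was for the neuronal *snb-1*. None of these 11 markers was at 0, and their part in the *nrde-3* value was not tested. Without this library the log2 change of *nrde-3* in *hrde-1* mutants was 0.07.

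The ratio of the germline to the somatic Argonaute mRNA thus mainly repeated the differences of *hrde-1*, since *nrde-3* was not called in any comparison. Per length, *hrde-1* mRNA exceeded *nrde-3* mRNA 12.1 to 16.2 times in wild-type libraries. The ratio was 3.40 to 7.67 in *hrde-1* mutants, with the full length of *hrde-1* used there, and 21.4 to 26.7 in *hrde-2* mutants. None of the 3 ranges overlapped another, with an exact permutation p = 0.1 in each comparison, the smallest possible. Between *hrde-2* mutants and wild-type, *hrde-1* mRNA itself was not called (edgeR adjusted p = 0.0791).

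The effector *nrde-2* encodes a conserved nuclear protein that is recruited by the Argonautes to pre-mRNA. Its mRNA was at 54.5, 78.5 and 64.9 CPM in wild-type, at 64.1, 70.7 and 58.3 CPM in *hrde-1* mutants and at 70.3, 109.8 and 82.5 CPM in *hrde-2* mutants. *hrde-2* replicate 2 was the highest of the 9 libraries, and the *hrde-2* and wild-type ranges overlapped. The log2 change was -0.04 ± 0.21 (SE) in *hrde-1* mutants and 0.41 ± 0.21 in *hrde-2* mutants, where the interval from -0.06 to 0.87 and an edgeR adjusted p of 0.236 left it below the threshold. Between the mutants it was 0.44 ± 0.21 (SE, edgeR adjusted p = 0.274). A fit of the 6 mutant libraries with the replicate block, added after the data were seen, gave 0.42 ± 0.13 (SE) with an edgeR adjusted p of 0.0469. Whether the replicate numbers pair these libraries is not shown by the labels or the correlations between libraries. Without the block, the fit of the same 6 libraries gave 0.44 ± 0.17 with an adjusted p of 0.114, and with the block in the fit of all 9 libraries it was 0.238. Over all genes, the fit of 6 libraries called 1058 higher and 900 lower with the block, against 835 and 558 without it. In the fit of 9 libraries the counts were 265 and 253 with the block, against 391 and 297 without it.

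The effectors *nrde-1*, which associates with pre-mRNA and chromatin at targets, and *nrde-4*, which is needed for NRDE-1 to be recruited there, varied most among wild-type libraries. *nrde-1* mRNA was at 18.4, 44.2 and 36.8 CPM in wild-type, at 34.4, 24.6 and 19.4 CPM in *hrde-1* mutants and at 33.8, 38.3 and 36.4 CPM in *hrde-2* mutants. *nrde-4* mRNA was at 34.8, 109.2 and 81.8 CPM in wild-type, at 73.4, 71.9 and 58.9 CPM in *hrde-1* mutants and at 70.5, 84.4 and 77.6 CPM in *hrde-2* mutants. The mutant libraries of both genes lay inside the wild-type range. In wild-type the SD of *nrde-4* was 37.6 CPM, against 7.96 and 6.95 CPM in *hrde-1* and *hrde-2* mutants. For *nrde-1* the corresponding values were 13.3, 7.62 and 2.28 CPM.

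No test called *nrde-1* or *nrde-4*. The log2 change of *nrde-1* was -0.34 ± 0.30 (SE) in *hrde-1* mutants and 0.12 ± 0.30 in *hrde-2* mutants, and that of *nrde-4* was -0.15 ± 0.31 and 0.04 ± 0.31. Their intervals, the widest of the 6 genes, ran from -0.99 to 0.30, from -0.52 to 0.76, from -0.82 to 0.53 and from -0.64 to 0.72, so that changes within these bounds were not excluded. Without wild-type replicate 1, the values in *hrde-1* mutants moved to -0.60 for *nrde-1* (edgeR adjusted p = 0.0628) and to -0.46 for *nrde-4* (0.0650). Among *nrde-1* to *nrde-4*, the edgeR fit of all 9 libraries called 0 of 4 in any of the 3 comparisons, with 0 of 4 at an unadjusted p under 0.05. DESeq2 also called 0 of 4, with 1 of 4 at an unadjusted p under 0.05 between the mutants. Of all genes tested, edgeR gave an unadjusted p under 0.05 for 18.2% in *hrde-1* mutants, 27.8% in *hrde-2* mutants and 20% between the mutants. A test of any difference among the 3 genotypes called *hrde-1* (edgeR adjusted p = 0.000844) and *hrde-2* (0.0150), beside 11.3% of all genes tested, and gave 0.263 to 0.886 for the *nrde* genes.

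**Figure D3:**
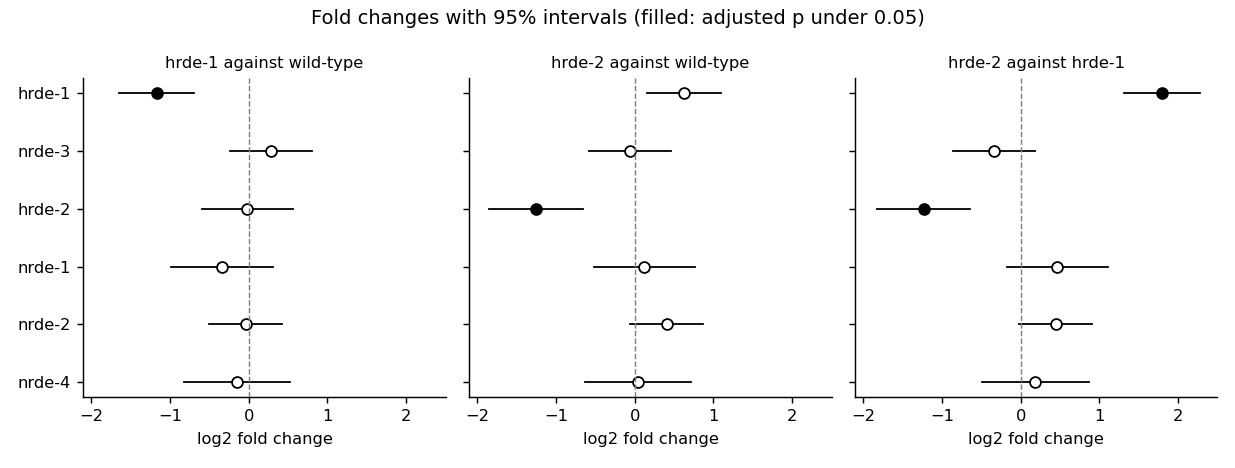
Log2 fold changes of the 6 genes with 95% intervals (lines) in the 3 comparisons, from the edgeR fit of all 9 libraries. Filled points passed the test: *hrde-1* at -1.17 in *hrde-1* mutants, *hrde-2* at -1.25 in *hrde-2* mutants, and both between the mutants, at 1.80 and -1.23.

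Small parts of 2 of the genes overlap other genes, and reads there were not counted. *nrde-1* shares 91 of its exon bases with C14B1.8 on the opposite strand. *nrde-4* shares 7 with *hmg-5* on the same strand and 59 with *cima-1* on the opposite strand. Leaving these bases out of the length did not change the order of the levels in wild-type and *hrde-1* mutants, whereas in *hrde-2* mutants *nrde-1*, at 21.1 TPM, then came before *hrde-2*, at 20.5 TPM. Of the other same-strand neighbours within 500 bases, *alkb-8* ends 180 bases upstream of *nrde-1*, and *mrps-14* starts 104 bases downstream of *nrde-2*. None of these 5 genes was called in any comparison by edgeR (adjusted p between 0.112 and 0.966), with log2 changes between -0.50 and 0.68.

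Per length, the levels in wild-type were in the order *hrde-1*, *hrde-2*, *nrde-4*, *nrde-2*, *nrde-1* and *nrde-3*. The means were 104 ± 32.7, 43.8 ± 18.1, 38.7 ± 20.3, 20.8 ± 4.58, 16.7 ± 7.25 and 7.29 ± 1.51 TPM (SD, n = 3). The order was the same within each of the 3 wild-type libraries, but between libraries only *hrde-1* and *hrde-2*, and *nrde-1* and *nrde-3*, had ranges that did not overlap. Among *hrde-2*, *nrde-4*, *nrde-2* and *nrde-1*, each thus overlapped the next in range between libraries, though not in order within a library. The Argonaute of the germline alone accounted for 43.3% to 49.0% of the summed TPM of the 6 genes.

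In *hrde-1* mutants the order was kept, but the first place was nearly shared. Bases that an allele may remove from its own gene were not taken out of the length. Their effect on these levels, shares and ratios was not tested. *hrde-1* mRNA was at 49.8 ± 5.17 TPM (SD, n = 3) and *hrde-2* mRNA at 46.5 ± 3.29 TPM, with overlapping ranges and a ratio of 1.02 to 1.10, against 2.22 to 2.85 in wild-type. *hrde-1* then made up 23.9% to 31.6% of the sum. In *hrde-2* mutants *hrde-1* mRNA was at 181 ± 10.0 TPM and made up 56.9% to 62.1% of the sum. It was followed by *nrde-4* at 44.6 ± 5.91, *nrde-2* at 31.4 ± 8.79, *hrde-2* at 20.5 ± 2.86, *nrde-1* at 20.4 ± 2.13 and *nrde-3* at 7.91 ± 1.32 TPM. There *hrde-2* and *nrde-1* could not be told apart, and *hrde-1* exceeded *hrde-2* 7.35 to 10.1 times.

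**Figure D4:**
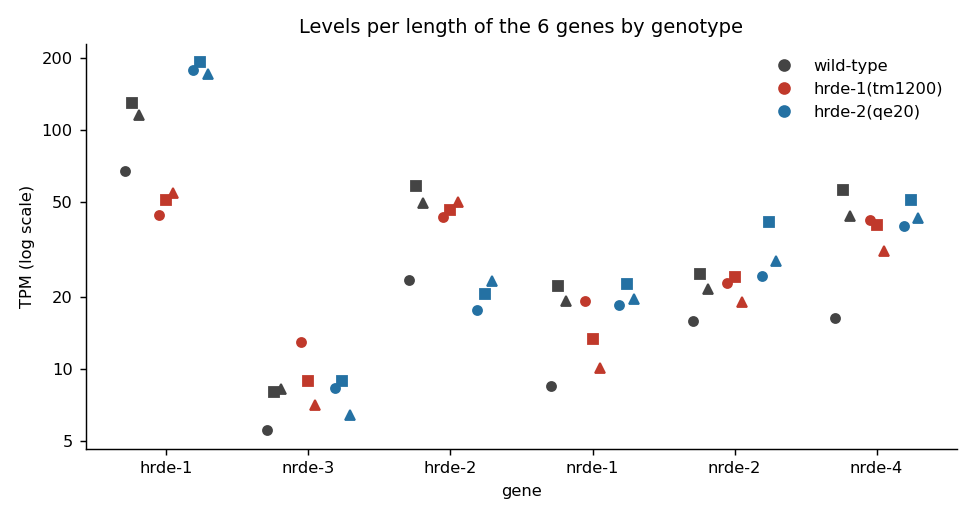
Level per length of the 6 genes in the 9 libraries (TPM, log axis), coloured by genotype, with symbols for the replicate number. *hrde-1* ranges from 44.1 to 191 TPM over the genotypes, while *nrde-3* stays between 5.55 and 13.0 TPM.

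A set of 30 genes of nuclear RNAi and of other small RNA pathways was then examined by group. All of them passed the filter on low counts. In *hrde-1* mutants 1 of the 30 was called higher and 0 lower, in *hrde-2* mutants 7 were called higher and 1 lower, and between the mutants 2 were higher and 1 lower in *hrde-2* mutants. The background for these counts was 1.24% of all genes tested called higher and 0.313% lower, then 7.57% and 4.25%, then 3.22% and 2.45%. The median log2 changes of the 30 genes were 0.37, 0.29 and 0.12, against -0.03, -0.10 and -0.01 over all genes tested. Scaled by the germline markers, these medians were 0.12, -0.08 and -0.03, while the median of all genes tested shifted by -0.31, -0.45 and -0.14. On that scale 1 gene was called higher (*simr-1*) and 1 lower (*mut-14*) in *hrde-1* mutants. In *hrde-2* mutants 3 were higher (*simr-1*, *alg-3* and *alg-4*) and 5 lower (*wago-4*, *enri-1*, *mut-14*, *smut-1* and *rde-8*), and between the mutants 0 were higher and 1 lower (*wago-4*). Without wild-type replicate 1, 5 were higher and 3 lower in *hrde-1* mutants, 7 higher and 5 lower in *hrde-2* mutants, and 4 higher and 1 lower between the mutants.

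No gene of histone methylation and chromatin compaction passed the test. *met-2* and *set-25*, which methylate lysine 9 of histone H3, *set-32*, a methyltransferase also needed for inherited silencing, and *morc-1*, which acts in the germline downstream of HRDE-1, had log2 changes between -0.21 and 0.97. Of these 4 genes, 0 were called in each comparison by edgeR and by DESeq2, with 0, 1 and 0 at an unadjusted p under 0.05 in *hrde-1* mutants, in *hrde-2* mutants and between the mutants by edgeR. The 1 gene was *set-25*, at 0.97 ± 0.41 (SE, edgeR adjusted p = 0.147), which was called higher without the filter on low counts or without *hrde-2* replicate 3. Between the mutants, *morc-1* was called higher without wild-type replicate 1 and in the fit of 6 libraries with the replicate block.

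The 13 genes of 22G-RNA production, which include the polymerases *ego-1* and *rrf-1* and the Mutator factors *mut-2*, *mut-7*, *mut-15* and *mut-16*, likewise held 0 called genes in each comparison by edgeR and by DESeq2. At an unadjusted p under 0.05 there were 1, 2 and 1. Their median log2 changes were -0.13, 0.17 and 0.08. Without wild-type replicate 1, 3 of them were called lower in each mutant, namely *smut-1*, *mut-2* and *rde-8*, and *mut-15* was called higher between the mutants. With germline scaling, *mut-14* was called lower in *hrde-1* mutants, and *mut-14*, *smut-1* and *rde-8* in *hrde-2* mutants. On that scale 1056 and 2819 of all genes were called lower in these mutants. In *hrde-2* mutants *ego-1* was called higher without the filter and in the fit of 6 libraries with the block.

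Among the proteins that work with HRDE-2, *simr-1*, which encodes a Tudor domain protein of the germ granule, rose in *hrde-2* mutants by 0.88 ± 0.18 on the log2 scale (SE, edgeR adjusted p = 0.00849). This call held in all 19 alternatives at that threshold. In *hrde-1* mutants its value was 0.72 ± 0.18 (adjusted p = 0.0790). The relatives of *hrde-2* named *enri-1* and *enri-2* were not called, with log2 changes of -0.92 ± 0.38 and -0.28 ± 0.45 in *hrde-2* mutants, and *enri-1* was called lower there without wild-type replicate 1 or with germline scaling.

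Most of the calls were among 9 other Argonautes. Of these, 5 were called higher and 1 lower in *hrde-2* mutants, 1 was higher in *hrde-1* mutants, and 2 were higher and 1 lower between the mutants. The Argonautes of spermatogenesis, *alg-3* and *alg-4*, had by far the largest values. *alg-3* was at 2.23, 0.687 and 0.718 CPM in wild-type, at 5.62, 6.70 and 5.87 CPM in *hrde-1* mutants and at 15.9, 19.4 and 12.9 CPM in *hrde-2* mutants, without overlap. It rose by 2.32 ± 0.42 on the log2 scale in *hrde-1* mutants (SE, edgeR adjusted p = 0.0127) and by 3.73 ± 0.42 in *hrde-2* mutants (0.000287). *alg-4* rose by 3.25 ± 0.47 in *hrde-2* mutants (0.000926) and was at 1.62 ± 0.47 in *hrde-1* mutants (0.116). The call of *alg-3* in *hrde-1* mutants was lost without wild-type replicate 2 (0.0605) or replicate 3 (0.0573), in the fit of 6 libraries (0.0880) and with germline scaling (0.0577).

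Sperm markers moved with these 2 genes. The summed level of the 10 sperm genes ranged in wild-type from 18.1 to 47.7 CPM, in *hrde-1* mutants from 47.2 to 68.4 CPM and in *hrde-2* mutants from 161 to 216 CPM, and *spe-38* was at 0 in all wild-type libraries. Of the 8 sperm genes tested, 1 was higher in *hrde-1* mutants, 8 in *hrde-2* mutants and 7 between the mutants. Without wild-type replicate 1 these counts were 8, 8 and 8, and with germline scaling they were 0, 7 and 0. Between the mutants 0 to 3 were called when any 1 of the 6 mutant libraries was left out. Their part in the *alg-3* and *alg-4* values was not tested. Between the mutants, *alg-3* differed by 1.40 ± 0.36 (SE, edgeR adjusted p = 0.0395) and *alg-4* by 1.64 ± 0.42 (0.0406). With the replicate block in the fit of all 9 libraries both calls were lost, at 0.0514 and 0.0609, which left 1 of the 3 called genes of the lists, whereas in the fit of 6 libraries with the block they were kept, at 0.00200 and 0.00113. With germline scaling they were 0.210 and 0.202. They were also lost when any 1 of the 6 mutant libraries was left out, at adjusted p values up to 0.191 and 0.190.

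*wago-4*, an Argonaute of the germ granule that is needed to inherit RNAi, went the other way. It was at 72.6, 50.5 and 62.0 CPM in *hrde-2* mutants, at 94.9, 110.4 and 113.9 CPM in wild-type and at 117.5, 122.3 and 133.2 CPM in *hrde-1* mutants. All *hrde-2* libraries lay below all others. The mRNA fell by 0.79 on the log2 scale against wild-type (-0.79 ± 0.19, SE, edgeR adjusted p = 0.0169), and the mutants differed by -1.01 ± 0.19 (0.0109). Of the 15 germline markers, 2 were called higher and 0 lower in *hrde-2* mutants, beside 7.57% and 4.25% of all genes tested. With these markers as the scale, 0 of them were higher and 1 lower. The part of germline or somatic content in the *wago-4* value was not tested. The call of *wago-4* held in 13 of 19 alternatives against wild-type and in 16 of 19 between the mutants, and the highest adjusted p values, 0.106 and 0.0899, came from leaving out *hrde-2* replicate 2.

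The remaining calls were smaller rises in *hrde-2* mutants. The log2 changes were 0.92 ± 0.21 (SE) for *znfx-1*, a helicase of Z granules, 0.73 ± 0.22 for *prg-1*, the Piwi Argonaute, 0.65 ± 0.19 for *ppw-2* and 0.58 ± 0.17 for *csr-1*, an Argonaute that binds small RNAs against expressed germline genes. The edgeR adjusted p values were 0.0142, 0.0464, 0.0407 and 0.0426, and the calls held in 16, 10, 8 and 7 of 19 alternatives. With the germline markers as the scale they were 0.212, 0.129, 0.545 and 0.649, with log2 changes between 0.13 and 0.48. On that scale *simr-1* and *wago-4* kept their calls and their directions, with log2 changes of 0.47 (0.0200) and -1.22 (0.00433) in place of 0.88 and -0.79.

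**Figure D5:**
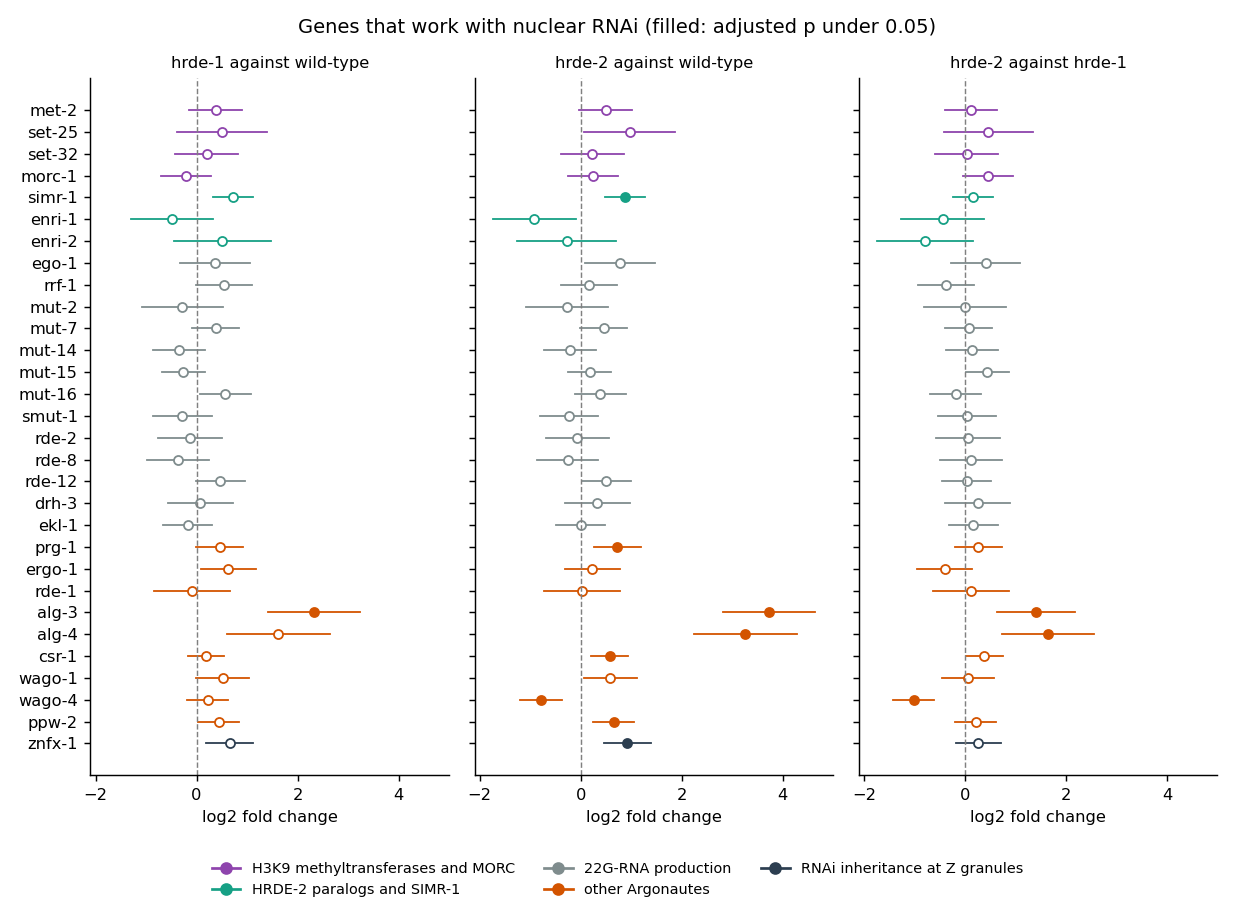
Log2 fold changes with 95% intervals of the 30 related genes in the 3 comparisons, coloured by group, with filled points for genes that passed the test. *alg-3* and *alg-4* stand far to the right in *hrde-2* mutants, at 3.73 and 3.25, *wago-4* lies to the left at -0.79, and the genes of 22G-RNA production and histone methylation are open points in every panel of this fit.

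The levels of the 6 genes over the 9 libraries did not follow 1 common pattern. *nrde-1* and *nrde-4* were most alike (Pearson r = 0.87 of log2 CPM over 9 libraries), and both were low in wild-type replicate 1. *hrde-1* and *hrde-2* ran in opposite directions (r = -0.55), each being low in its own mutant. These libraries differ in genotype, depth and germline content, so the values describe the libraries and carry no test.

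Among 7116 genes with a mean of at least 10 CPM, the gene whose pattern was most like that of *nrde-4* was *rde-1* (r = 0.99), the Argonaute that starts the response to exogenous double-stranded RNA, followed by F55A12.5 and *ada-2* (both 0.99). For *hrde-1* they were Y57A10A.2 (0.99), the pseudogene WBGene00014915 (0.97) and W04C9.4 (0.97). For *hrde-2* they were B0513.4 (0.97), *gst-7* and *try-14* (both 0.96), and for *nrde-1* they were B0491.6 (0.96), *dnj-1* and *mms-19* (both 0.95). *nrde-2* was most like *rpom-1*, the mitochondrial RNA polymerase (0.95), K10C3.5 (0.95) and C01G10.10 (0.94). *nrde-3* was most like D2030.2, *tbc-14* and the autophagy gene *lgg-2* (0.94, 0.94 and 0.93).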

How the data were processed

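Polyadenylated RNA of 9 libraries was analysed. The authors used Trimmomatic 0.39 for trimming, HISAT2 2.2.1 for alignment to WS258 and featureCounts 2.0.1 for counting, and the deposited values are unnormalized whole-number counts. Per the file headers no strand option was set and reads of several places or several genes were not counted, so that antisense reads are added to a gene although the kit keeps strand. Counts were fitted in R 4.3.3 with edgeR 4.0.16 (TMM scaling, filterByExpr, robust quasi-likelihood test, genotype as the only term, all 9 libraries). The Benjamini-Hochberg adjustment covered the 12141 genes tested, with a call below 0.05. The biological coefficient of variation was 27.0%. Alternatives were other scalings, including the geometric mean of 15 germline markers, other filters, DESeq2 1.42.0, fits of 6 libraries, a replicate block and leaving out each library. The script was tested on simulated counts.

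Groups and replicate numbers came from the sample titles. Deviations from the group means of same-numbered libraries correlated at 0.11 to 0.25 between the mutants. Between wild-type and the *hrde-1* or *hrde-2* mutants they correlated at -0.09 to -0.04 and -0.25 to 0.20. Differently numbered libraries reached 0.06 between the mutants but 0.39 for wild-type replicate 2 and *hrde-2* replicate 3. These values therefore do not show whether the numbers pair libraries. Both mutants were compared with the same wild-type libraries. Other named genes were called genes of 5 lists, exon overlaps and close neighbours on the same strand, and for each of the 6 genes the 3 with the most similar log2 CPM (prior count 2). The 6 genes and the lists were chosen with earlier results of these data known. The fit of 6 libraries with a block was added after the data were seen, as were the ratios to single genes and to the markers per library.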

Additional observations from a re-analysis of the deposited data

Results flagged for a closer look

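The level of *hrde-1* mRNA was marked for a closer look because it lay below all wild-type libraries in *hrde-1* mutants, at a log2 change of -1.17, and above all of them in *hrde-2* mutants, at 0.63. The difference between these effects equals the contrast of the mutants, 1.80 ± 0.22 on the log2 scale (SE, edgeR adjusted p = 0.00110), since both share the wild-type libraries. Relative to germline markers the difference was 1.67 (0.00285). How far the reads in *hrde-1* mutants come from parts of the gene outside the lesion was not analysed here.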

How the results depend on the processing

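Over 20 alternatives for 6 genes in 3 comparisons, 338 of the values kept their direction or stayed without a call, 17 lost and 5 gained a call, and none of the called values turned its sign. The number of the 6 genes called in *hrde-1* mutants, 1 in the report, was 0 in the fit of 6 libraries, in that fit with the replicate block and at an adjusted p under 0.01, and 0 to 1 with single libraries left out. In *hrde-2* mutants it was 2 with the DESeq2 Wald test and in the fit of 6 libraries with the block, 0 at 0.01, and 0 to 2 with single libraries left out. Between the mutants it was 3 in the fit of 6 libraries with the block, where *nrde-2* was also called, 1 at 0.01, and 1 to 2 with single libraries left out. The test of any difference called 1 to 2. With the replicate block in the 6 libraries, *hrde-1* in *hrde-1* mutants had an adjusted p of 0.181 and in *hrde-2* mutants of 0.0341. Whether the numbers pair these libraries was not shown. Apart from the block values given here and in the report, the block changed no call of the 6 genes. Of the 30 related genes, the number called in *hrde-1* mutants was 2 with germline scaling or no filter, 3 with DESeq2, 0 with 10 counts in every library, in 6 libraries with or without the block and at 0.01, and 0 to 8 with single libraries left out, 8 being without wild-type replicate 1. In *hrde-2* mutants it was 4 in 6 libraries, 3 at 0.01 and 3 to 12 with single libraries left out. Between the mutants it was 1 with germline scaling, 10 counts in every library or the block. It was 0 at 0.01 and 0 to 5 with single libraries left out. The filter of 10 counts in every library kept 28 of the 30 genes, without *alg-3* and *alg-4*, which could therefore not be called there. The count of all genes called higher and lower ranged from 43 to 767 and from 8 to 1056 in *hrde-1* mutants (150 and 38 in the report), from 378 to 1682 and from 108 to 2819 in *hrde-2* mutants (919 and 516), and from 27 to 1058 and from 61 to 900 between the mutants (391 and 297). The highest counts of lower genes against wild-type came from germline scaling. Leaving out exon bases shared with other genes changed 2 of the 18 places in the order of levels, those of *nrde-1* and *hrde-2* in *hrde-2* mutants. The intervals given for the *nrde* genes do not exclude changes within them.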
